A study of Macaca mulatta with 3 samples.

Results

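H3K4me3 peaks on chromosome 19 of the rhesus macaque were described in the prefrontal cortex. All peaks that the authors listed on that chromosome were taken, 1918 of 24248 in all, or 7.91%. The study mapped this mark to find transcription start sites. Frozen superior frontal gyrus of 1 male, 3389 days old, gave the chromatin. It was sheared by sonication and precipitated using an antibody to histone H3 trimethylated at lysine 4, and sheared DNA without precipitation was the input control. Single-end sequencing read 36 bases of each fragment and left 10023993 aligned tags for the ChIP library and 9162762 for the input. There was 1 library of each kind from 1 animal, so no value below has a replicate check.

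H3K4me3 is written by the SET1 and MLL methyltransferase complexes, which are drawn to unmethylated CpG islands by proteins with a CXXC zinc finger. It marks the nucleosomes that flank active promoters, and also promoters held ready for use. The human counterpart of macaque chromosome 19 is known as the most gene-dense human chromosome, rich in GC and in tandem clusters of KRAB zinc-finger genes. Genes were not placed under the peaks, because the only gene table at hand describes another assembly, so the members are named by position and no sequence is shown. Cortex holds neurons, glia and vascular cells, and a mark in few cells cannot be told apart from a weak mark in many. The tissue label was not checked against marker genes.

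Chromosome 19 carried the densest H3K4me3 landscape of the 20 autosomes. It made up 2.25% of the span of the autosomes and X but held 7.91% of the peaks, at 29.8 peaks per Mb (exact Poisson interval 28.5 to 31.2). The other 19 autosomes ran from 4.22 on chromosome 5 to 18.99 on chromosome 16, with a mean of 8.69 ± 3.63 (SD over autosomes, n = 19). A stretch of 8.46 Mb held no input tag, so the length that could yield a peak was shorter than the chromosome. Over 100 kb blocks with at least 1 input tag, 56.1 Mb in total, the density was 34.2 per Mb, against 4.22 to 19.3 on the other autosomes. Peaks covered 3.76% of chromosome 19, against 0.541% to 2.38% elsewhere. Chromosomes of 1 animal are not replicates, so each such comparison gives the place of chromosome 19 among the autosomes and no test.

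**Figure D1:**
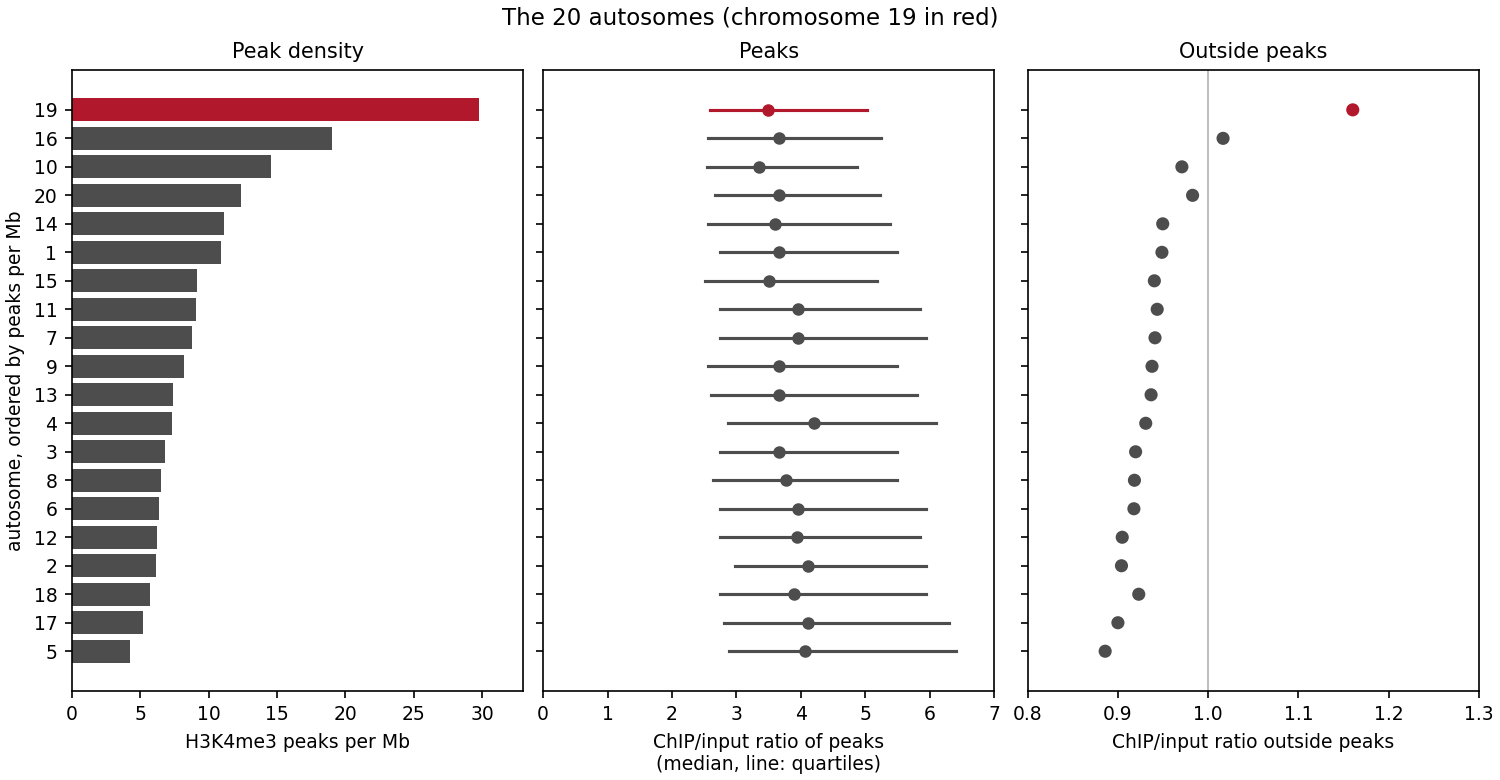
Peaks per Mb (left), the ChIP to input ratio of peaks as median and quartiles (middle) and the ChIP to input ratio of all sequence outside peaks (right) for the 20 autosomes, with chromosome 19 in red. Chromosome 19 stands highest on the left with 29.8 peaks per Mb and on the right with a ratio of 1.16, while its median ratio within peaks, 3.48, is next to lowest.

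The members were of ordinary size. Widths in the list come in steps of 200 bases, so a smaller difference could not show. Their median width was 1000 bases (quartiles 800 and 1600), and the medians of the other autosomes were 1000 to 1200. The narrowest member spanned 200 bases and the widest 7200, whereas peaks elsewhere reached 25200. Widths of 1600 bases or more were found in 27.5% of members, against 21.2% to 31.3% on the other autosomes. Widths of 200 to 400 bases were found in 9.23%, against 8.33% to 14.0%.

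A typical member held as many ChIP tags as a peak elsewhere, with a median input per kb at the upper end of the autosomes. The median was 23 ChIP tags (quartiles 15 and 40) and 6 input tags (quartiles 4 and 10), and 29 members held no input tag. Median ChIP tags of the other autosomes were 20 to 25.5. Per kb of peak, the median input was 5.83 tags on chromosome 19, which no other autosome exceeded, and the lowest autosome had 5. Pooled over all members, input was 6.87 tags per kb, inside the range of 5.62 to 19.1 elsewhere. Median ChIP tags per kb were 22.5, at the low end of a range that reached 25.

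The median ratio of ChIP to input per peak was at the low end of the autosomes. This ratio is the ChIP tags of a peak over its input tags, after scaling for library size (the ChIP library had 1.09 times the tags of the input). Peaks with 0 input tags were treated as having 3, which turns their ratio into a lower bound. The median over members was 3.48 (quartiles 2.59 and 5.03), and that of the other autosomes averaged 3.81 ± 0.234 (SD over autosomes, n = 19). The median was lower on chromosome 10 alone, at 3.35, although with distinct U0 tags (the code of tags that the input file also holds) or with tags moved 75 bases chromosome 19 ranked 16 of 20 from the highest. Ratios of at least 4 were reached by 759 members (39.6%), against 36.5% to 52.8% elsewhere. Ratios of at least 8 were reached by 177 (9.23%), against 7.38% to 15.8%.

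Of the 1918 members, 1469 (76.6%) were enriched in an exact binomial test between the libraries, at a Benjamini-Hochberg adjusted p below 0.05 over all peaks and a ratio of at least 2. The same rule called 77.4% of all 24248 peaks and 77.2% of those on the other autosomes, so the share on chromosome 19 lay near this background. The adjusted p alone passed for 1513 members, and an unadjusted p below 0.05 was found for 1585. The authors drew up the list from these ChIP tags, so the counts describe it and test nothing about it. Counted on each strand separately, 1219 members (63.6%) reached a ratio of 2 on both, against 65.9% of all peaks and 66.0% of those on the other autosomes.

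Split by width, chromosome 19 ranked lowest in 1 class. Among its 396 peaks of 1600 to 2400 bases the median ratio was 3.42 (quartiles 2.48 and 5.22), the lowest of the 20 autosomes, whose others ran from 3.53 to 4.83. These members held a median of 44 ChIP tags, against 44 to 50 elsewhere, and 6.11 input tags per kb, against 5 to 6. In the 539 members of 600 to 800 bases the median ratio was 3.66, inside the range of 3.35 to 4.22 of the others. In the 132 members wider than 2400 bases it was 3.68, inside a range of 3.1 to 6.19.

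Around peak centres the ChIP tags formed the same mound as elsewhere, on a higher floor. With peaks of high input left out (defined below), 1902 members reached 2.76 ChIP tags per peak and 100 bases at the centre, and 21779 peaks of other autosomes reached 2.82. Beyond 2 kb from the centre the level was 0.756 on chromosome 19 and 0.65 elsewhere. The centre thus stood 3.65 times above its surroundings on chromosome 19 and 4.33 times elsewhere. Input was higher at the centre than beyond 2 kb by a factor of 1.38 and 1.35. Neighbouring peaks can contribute to the level beyond 2 kb, and they were closer on chromosome 19. Their part in the higher level was not tested.

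**Figure D2:**
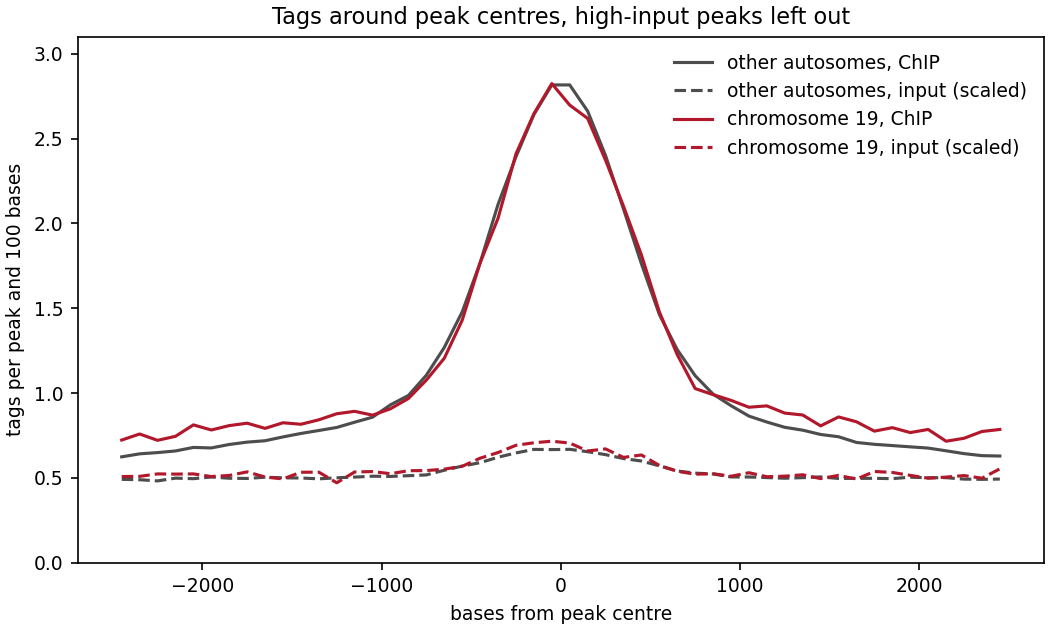
Mean tags per peak and 100 bases (vertical) against distance from the peak centre in bases (horizontal), for chromosome 19 in red and the other autosomes in grey, with ChIP solid and input, scaled to the ChIP total, dashed. Both ChIP curves reach about the same height, 2.76 and 2.82 at the centre, while beyond 2 kb chromosome 19 lies higher, at 0.756 against 0.65.

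Tags mark the ends of fragments, so those of the plus strand lie left of those of the minus strand around a marked nucleosome. In members with at least 5 ChIP tags on each strand, minus-strand tags lay a median of 62.3 bases to the right of plus-strand tags, against 61.0 elsewhere. In the 372 members without high input that allowed it in both libraries, the offset was 73.7 bases in the ChIP library (quartiles -27.2 and 160) and 34.5 in the input (quartiles -199 and 187). The ChIP offset was the larger in 207 of them, so single peaks varied more than the libraries differed.

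Members lay close to one another. The median gap between neighbours was 14.6 kb (quartiles 4.2 and 33.2), the shortest of the autosomes, of which chromosome 16 was next with 19 kb and the others ran up to 89.4 kb. Gaps under 5 kb made up 27.4% of all gaps, against 12.4% to 23.4% on the other autosomes. Gaps over 100 kb made up 4.49%, against 13.4% to 46.7%. Gaps under 1 kb, at 9.70%, lay within the range of the other autosomes, 6.25% to 10.2%, where the upper value was that of chromosome 14. More peaks per Mb shorten the gaps by construction. Divided by the mean gap, the median gap was 0.452, inside the range of 0.301 to 0.458 on the other autosomes. The mean includes the long stretch without tags, which raises the mean and lowers this value. Its place inside the range therefore does not show that the spacing was ordinary.

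Peaks under 5 kb apart were chained to describe their groups. A higher number of peaks per Mb enlarges such units by itself, and the counts were not adjusted for it. Whether members gathered beyond their density was not tested. Chaining left 1393 units on chromosome 19, of which 1043 were single peaks, 248 were pairs and 102 held at least 3 peaks. Single peaks thus were 54.4% of members, against 61.4% to 76.8% on the other autosomes. Units of at least 3 held 19.8% of members, against 3.13% to 19.1%, where the upper value was that of chromosome 16.

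The largest unit held 9 peaks in 23.8 kb, at 12654601 to 12678400. Its members had 27 to 58 ChIP tags and ratios from 1.66 to 4.27, and 7 of the 9 were enriched by the exact binomial test. The lowest ratios were those of the first pair on the left, with 58 ChIP against 32 input tags and 38 against 20. Just beyond it one of the units of 7 peaks ran from 12685401 to 12709200. In that unit 1 peak of 4.6 kb, at 12698201 to 12702800, held 161 of the 292 ChIP tags with a ratio of 6.40 (exact Clopper-Pearson interval 4.12 to 10.4), and the other 6 had ratios from 2.19 to 3.47. In a unit of 8 peaks at 42219601 to 42241600 no peak held so large a part of the tags, with 13 to 47 ChIP tags a peak. Its ratios ran from 2.12 to 6.63.

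The ratio of a member showed no steady order by the distance to its nearest neighbour. Members with a neighbour under 1 kb away had a median ratio of 3.66 (n = 342 peaks), those at 1 to 5 kb 3.35 (n = 533), those at 5 to 50 kb 3.47 (n = 966) and those over 50 kb away 3.66 (n = 77). On the other autosomes the same classes gave 4.11, 3.40, 3.66 and 4.11. The lower and upper quartiles of the 4 classes on chromosome 19 lay between 2.51 and 5.36 and overlapped. Median ChIP tags were 22 to 23.5 in the closer classes of chromosome 19 and 18 in the most isolated.

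In fixed bins of 1 Mb, the peaks were spread over nearly the whole chromosome. Of its 57 bins with at least 1000 input tags, none lacked a peak, and the median held 33 (range 1 to 75). On the other autosomes the median of 2609 bins was 6 (range 0 to 72), and 214 bins held none. At least 20 peaks were found in 48 bins of chromosome 19 (84.2%), against 9.81% of bins elsewhere. At least 40 peaks were found in 16 bins (28.1%), against 1.46%, and these 16 held 45.6% of the members.

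The densest bins lay at several places. By count, the first was the bin from 63000001 to 64000000, near the right end, with 75 peaks that covered 11.0% of its bases. The last bin ends with the chromosome at 64391524 and is shorter than 1 Mb, so its count of 33 peaks cannot be ranked with these. Its peaks covered 14.8% of its bases, more than in any bin named here. The bins from 1000001 to 2000000 and from 12000001 to 13000000 held 71 each, that from 61000001 to 62000000 held 62, and those from 18000001 and from 42000001 held 59 each. In the bin from 12000001, 53 of 71 peaks had a neighbour under 5 kb away and the median gap was 4.4 kb. In the bin from 63000001 this held for 47 of 75, with a median gap of 8.2 kb. Peaks held 38.1% and 37.7% of the ChIP tags of those bins.

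**Figure D3:**
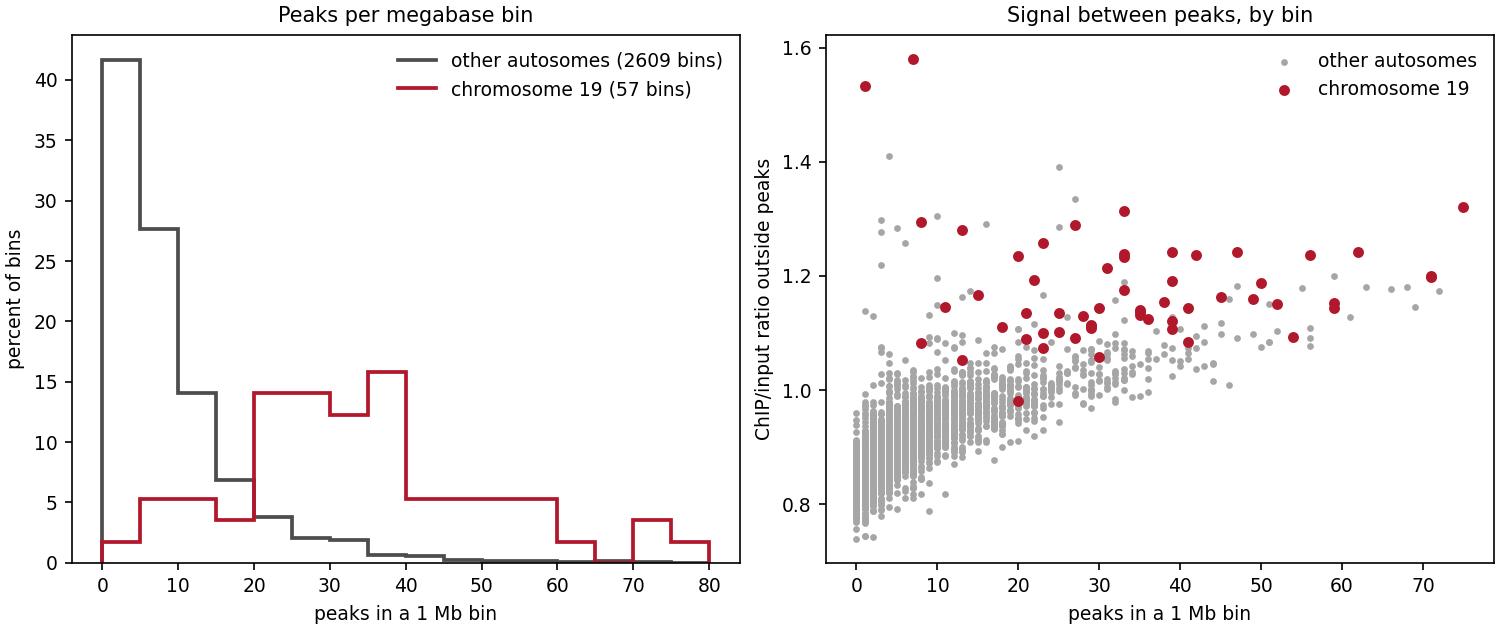
Left, percent of 1 Mb bins (vertical) by the number of peaks they hold (horizontal, steps of 5), for chromosome 19 in red and the other autosomes in grey. Right, ChIP to input ratio outside peaks (vertical) against the number of peaks (horizontal), 1 point per bin: with 20 to 39 peaks the ratio is 1.14 on chromosome 19 and 1.021 elsewhere, and 56 of the 57 red points exceed 1.

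Peaks thinned out toward the stretch without tags, and to the right of it. The first 20 Mb held 790 members, a median of 35 per bin, and the part from 41 Mb to the end held 932, a median of 37. Between 20 and 34 Mb there were 67, and between 34 and 41 Mb 129, a median of 20 per bin. These 4 segments were drawn after the values were seen. The peak-poor segment from 34 to 41 Mb also had weaker peaks: the median was 18 ChIP tags with a ratio of 2.87 (quartiles 2.38 and 3.96), and 82 of 129 were enriched (63.6%). In the first 20 Mb the ratio was 3.47, with 78.0% enriched, and from 41 Mb on it was 3.66, with 77.9%. The other sparse segment, 20 to 34 Mb, had a median of 22 ChIP tags and a ratio of 3.35 (quartiles 2.27 and 4.57). Of its 67 members 45 were enriched (67.2%).

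The longest stretch without a peak, 23883201 to 32583400, was mostly that without tags: it held 709 ChIP and 431 input tags, all near its edges. Beyond a single peak of 600 bases, the next ran from 32584001 to 33608600 (1.02 Mb) with input at 0.531 of the genome mean. The others were 0.598 Mb from 49077801, 0.486 Mb from 33655001 and 0.461 Mb from 23199401, so 4 of the 5 lay around the stretch without tags.

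One bin had stronger and wider peaks than its neighbours, the one from 43000001 to 44000000, named after its values were seen. Its 27 peaks had a median width of 1600 bases, 53 ChIP tags and 9 input tags. Ratios ran from 2.41 to 11.2 with a median of 6.06, which ranked 2nd of 304 autosomal bins with at least 20 peaks, where the median bin had 3.46. Of the 27, 24 were enriched and 22 had no neighbour within 5 kb. The median gap was 30.4 kb. The strongest by tags, at 43617401 to 43619000, held 134 ChIP against 15 input tags, and the highest ratio was at 43651801 to 43653800 with 49 against 4. The bins of next highest median ratio on chromosome 19 were those from 20000001 (5.48, 15 peaks) and 11000001 (4.72, 33 peaks).

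The members richest in ChIP tags without high input were wide. The first, at 12823801 to 12829600, spanned 5.8 kb and held 213 ChIP and 38 input tags, a ratio of 5.12 (3.62 to 7.44). The next held 182 and 36 tags at 54811801 to 54816600, 178 and 42 at 56152801 to 56158800, and 174 and 39 at 53559001 to 53563200. Their ratios of 3.87 to 4.62 had overlapping intervals. The widest of all, at 50050401 to 50057600, spanned 7.2 kb with 150 ChIP and 45 input tags, a ratio of 3.05 (2.17 to 4.35).

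Among the 51 members with at least 100 ChIP tags the highest ratio was 11.5 (5.64 to 27.5), at 54103201 to 54105600 with 101 ChIP and 8 input tags. It was followed by 9.96 (5.22 to 21.4) at 5522201 to 5525800, 9.78 (5.12 to 21) at 43256801 to 43259000, 9.73 (5.62 to 18.2) at 62635401 to 62636600 and 8.86 (5 to 17.1) at 43319201 to 43321400. All 5 intervals overlapped, so their order was not resolved at this depth. The fourth was the most compact, with 149 ChIP tags in 1.2 kb. On each strand alone all 5 had ratios of at least 6.97. A pair of them lay in the strong bin from 43000001.

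At the other end stood members on sequence with high input. In 16 members the input exceeded 10 times the genome mean, or 0.834% of members. This share was inside the range of 0.0859% to 2.56% on the other autosomes, so the class was not particular to chromosome 19. Of the 16, 10 lay between 21551201 and 22051600. They held 9.21% of the input tags of all members and 4.28% of the ChIP tags. Their median ratio was 1.56 and 2 of them were enriched; all 16 passed the adjusted p of the exact binomial test (0.0315 or less). The largest, 6.2 kb at 21937601 to 21943800, held 496 ChIP and 296 input tags, a ratio of 1.53 (1.32 to 1.77). The 5 lowest ratios among members with at least 100 ChIP tags, 1.37 to 1.44, all came from this class. ChIP tags of the codes U1 and U2, which the input file does not hold, made up 39.7% of its ChIP tags and 22.5% of those in the other members. Their part in the ratios of the class was not tested.

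Outside its peaks, too, chromosome 19 carried more ChIP signal for its input than any other autosome. The ratio there was 1.16 (exact Clopper-Pearson interval 1.15 to 1.17), and that of the other autosomes averaged 0.935 ± 0.0310 (SD over autosomes, n = 19), with 1.02 on chromosome 16 as the highest. Input outside peaks was 3.21 tags per kb of the whole length, inside the range of 2.73 to 4.18 elsewhere. That length includes the long stretch without tags, so the value understates the input of the rest of the chromosome. Tags of codes U1 and U2 made up 21.1% of ChIP tags outside peaks, the highest share of the autosomes, which ran from 17.6%. With distinct U0 tags alone the ratio was 1.14, still above 0.894 to 1.02 on the others.

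More peaks mean more flanks, so windows of 1 kb were grouped by distance to the nearest peak. Chromosome 19 was highest of the 20 autosomes at every distance. Its ratio was 1.255 (1.229 to 1.282) within 1 kb of a peak, against 1.09 to 1.20 elsewhere. It was 1.16 (1.14 to 1.18) at 2 to 5 kb, against 0.973 to 1.07, and 1.13 (1.12 to 1.14) at 10 to 50 kb, against 0.899 to 0.997. At 50 to 100 kb it was 1.12 (1.09 to 1.14), against 0.887 to 0.968. Distinct U0 tags gave the same rank at every distance, with 1.10 (1.09 to 1.11) at 10 to 50 kb against 0.901 to 1.0005.

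**Figure D4:**
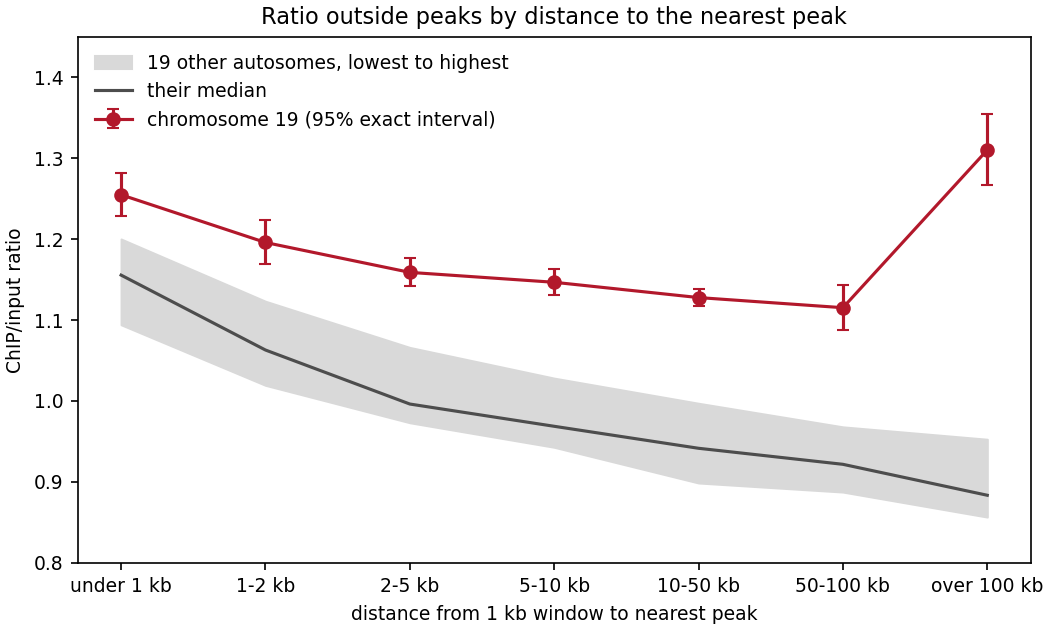
ChIP to input ratio (vertical) of 1 kb windows outside peaks by distance to the nearest peak (horizontal), for chromosome 19 in red with exact intervals and for the other 19 autosomes as a grey range with their median. The red points lie above the grey range at each distance, for example 1.13 against 0.899 to 0.997 at 10 to 50 kb.

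Farther than 100 kb from a peak the value was 1.31 (1.27 to 1.35), and there it rested on the segment of 20 to 34 Mb. Without that segment it was 1.13 (1.08 to 1.18), and at 10 to 50 kb it was 1.12 (1.11 to 1.13). The segment had the highest ratios outside peaks of the chromosome, 1.58 in the bin from 33000001 and 1.53 in that from 32000001, at low input. Outside peaks the ratio of the whole chromosome without it was 1.15.

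The signal between peaks was also higher within the same class of peaks per bin. In bins with 20 to 39 peaks the ratio outside peaks was 1.14 (1.13 to 1.15) over 32 bins of chromosome 19 and 1.021 (1.018 to 1.024) over 218 bins elsewhere. In bins with at least 40 it was 1.18 (1.17 to 1.19) over 16 bins and 1.10 (1.09 to 1.11) over 38. Within both classes the bins of chromosome 19 held more peaks on average, so the numbers were only roughly alike. The lower class held 950 peaks in 32 bins against 5776 in 218, and the upper 874 in 16 against 1891 in 38. Single bins overlapped: in the class of 20 to 39 they ran from 0.980 to 1.31 on chromosome 19 and from 0.911 to 1.39 elsewhere. The 1.31 was that of the last bin of chromosome 19, which is shorter than 1 Mb. It was classed by its count of 33 peaks as it stood, so for this bin the number of peaks is not alike. The bin also enters the correlations that follow. Over the 51 bins outside 20 to 34 Mb, the number of peaks and the ratio outside them were related with Pearson's r at 0.447 and Spearman's rho at 0.481. Over all 57 bins r was -0.0766 and rho 0.151, against 0.711 and 0.771 over all 2609 bins elsewhere. Among bins with at least 20 peaks r was 0.348 and rho 0.358 over 48 bins of chromosome 19, against 0.557 and 0.608 over 256 bins elsewhere. These are descriptions, as the bins share both libraries and their depth.

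Set against this higher floor, the peaks of chromosome 19 stood out least. The median ratio of its peaks was 3.001 times its own ratio outside peaks, the lowest of the autosomes, whose others ran from 3.45 to 4.59. The same scaling, by the tags of each chromosome outside its peaks, was used in the exact binomial test, so its outcome is not separate from that ratio. By it 1164 members (60.7%) were enriched, the lowest share, against 74.5% to 93.0% elsewhere and 80.3% of all peaks. In bins with at least 40 peaks, however, the median ratio over that outside was 3.096 on chromosome 19 and 3.05 elsewhere. In bins with 20 to 39 it was 3.04 and 3.36. On the other autosomes the median ratio of peaks declined from 4.27 in bins with under 10 peaks to 3.35 in those with at least 40. On chromosome 19 it was 3.94, 2.81, 3.47 and 3.66 in the 4 classes from sparse to dense, the first of 24 peaks and the next of 70.

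Together the members held a larger part of the tags of their chromosome than peaks did on any other autosome. They held 19.7% of its ChIP tags (19.6 to 19.9) and 7.72% of its input tags (7.61 to 7.84). On the other autosomes these shares were 4.64% to 12.6% and 1.13% to 5.27%. The tenth of members with most ChIP tags held 29.7% of the ChIP tags in members, against 25.8% to 58.5% elsewhere.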

How the data were processed

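For both libraries the authors deposited aligned tags, and for the ChIP library a list of peaks. The deposited score of each tag was 0 throughout and went unused. The list gives each peak a p-value or q-value below 0.001 as deposited by the authors, with no statement of adjustment. Per the submitters' processing notes, TopHat and SICER were used, without stated roles or versions. The sources used here do not say which aligner placed the ChIP and input tags, and they name no genome build. ChIP tags spanned 36 bases with codes U0, U1 and U2, and 0.343% repeated a position. Input tags spanned 38 bases, although the labels give 36, were all U0 and repeated no position, so the files had not been filtered alike.

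Tags were placed at their 5' end and counted in peaks, written from 1, in 1 Mb bins from 0 by peak centre, and in 1 kb windows. High input means over 10 times the genome mean. Chromosome length ends at the last tag, so the last bin of a chromosome can be shorter than 1 Mb. ChIP and input were compared by two-sided exact binomial tests, adjusted over all 24248 peaks. Intervals are at 95%, exact Clopper-Pearson unless named otherwise, and cover counting error only, since PCR tags are not independent molecules. Peaks were named by rule: the widest, those of highest and lowest ratio with at least 100 ChIP tags, those with most ChIP or input tags, the densest bins, the longest stretches without a peak and the largest chained units. The members, classes and rules were chosen with earlier results of these data known. The recount was tested on simulated data. The pooled RNA was not analysed here. Software was matplotlib 3.10.9, pandas 2.3.3, scipy 1.17.1 and numpy 2.4.6 under Python 3.11.15.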

Additional observations from a re-analysis of the deposited data

How the results depend on the processing

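Across 40 alternatives, 22 gave values inside the interval of the reported one (counts: inside a factor of 1.5). The 4 that used blocks with an input tag or left out 20 to 34 Mb were chosen after the data were examined. Chromosome 19 stayed the densest autosome in each, with 26.9 peaks per Mb after merging peaks under 1 kb apart, 16.3 with deposited values under 1e-06, 11.8 with ratios of at least 4 and 34.2 over blocks with an input tag. Its median gap stayed shortest, at 17.4 kb merged and 27.4 kb under the stricter value, which left 1 bin of at least 40 peaks in place of 16. A ratio of at least 4 left 729 members enriched. The median ratio was 3.71 when scaled by tags outside peaks over the genome, 3.001 by those of the same chromosome and 4.57 under the stricter value. The share of ChIP tags in peaks stayed highest, at 19.3% with distinct U0 tags, 20.2% with tags moved 75 bases and 19.1% without high input. So did the ratio outside peaks, at 1.14 with distinct U0 tags, 1.153 with moved tags, 1.145 at least 2 kb from any peak and 1.15 without 20 to 34 Mb. Stricter lists hold fewer peaks by construction; otherwise the cause was not tested. With a median of 6 input tags, the order of single members by ratio was not resolved. No paired analysis was possible because each group had 1 library.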
